A study of Mus musculus with 4 samples.

Results

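The actin cytoskeleton of leukaemic spleen cells was followed through 49 genes for actin itself, its nucleators, capping and severing proteins, myosin II, crosslinkers and the DOCK and ELMO proteins that signal to actin. Members were taken by exact symbol from the deposited table of 24497 features, and 48 of the 49 were found. Diap1 had no row under that symbol; RefSeq lists it as an older name of Diaph1, which is described with the other pathway genes below. The cells came from mice with acute myeloid leukaemia driven by the fusion gene MLL-AF9 (MA9). Primary leukaemic bone marrow cells carrying CD45.2 had been transplanted into sub-lethally irradiated secondary recipients (320 rads), so donor cells in both groups carried the fusion. Recipients had injections into the peritoneum on alternate days for 20 days, of PBS or of CS1 (5 mg/kg), which the labels call an FTO inhibitor (FTO removes methyl groups from RNA). Spleens were taken at the end point, red cells were lysed, and cells bearing CD45.2 were pulled out with beads for poly(A) RNA sequencing, so some host cells could remain. Each group had 2 libraries. CS1 replicate 2 is named CS1 in its title and CS2 in its treatment field, and was kept in the CS1 group by its title. The labels give neither the strain nor the age of the mice, nor whether the replicates came from different mice. The p-values therefore reflect the spread among these libraries alone, and that spread may be technical.

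Actin is a globular protein that polymerises into polar filaments. The Arp2/3 complex branches new filaments off old ones when WASP or the WAVE complex switches it on, formins and Ena/VASP proteins lengthen unbranched filaments, capping proteins stop growth, and cofilin and gelsolin sever. Myosin II pulls on the filaments, and crosslinkers, ezrin-radixin-moesin proteins and talin tie them to each other, to the membrane and to integrins. In leucocytes this machinery drives crawling, phagocytosis and the firm attachment of cells to vessel walls, and several of its genes, among them Was, Dock2, Dock8, Coro1a and Nckap1l, cause immune deficiency when mutated in people.

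Nearly the whole set was lower in CS1. Of the 48 members, 43 were lower in CS1, 2 were higher and 3 did not pass the test, which was limma on log2(TPM + 1) over all features with a call at an adjusted p under 0.05. TPM is a length-normalised share of all transcripts in a library. Over all 11866 features tested, 31.6% were called lower, 35.3% higher and 67.0% in either direction. The members' median log2 fold change was -0.52, against 0.04 over all tested features. Falls of at least 0.5 on the log2 scale were called for 25 members, while 11.9% of tested features had such a fall. Both CS1 libraries lay below both PBS libraries for 43 members, as they did for 39.3% of tested features. Abundant features were lower more often in general: of those with a mean of at least 100 TPM, 50.8% were called lower and the median log2 fold change was -0.10. Of the 42 members above that level, 39 were called lower. Summed over the 48 genes, the members made up 5.31% and 5.27% of all TPM in PBS and 3.89% and 3.88% in CS1. In bulk samples, fewer cells of a type and less RNA per cell cannot be told apart.

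**Figure D1:**
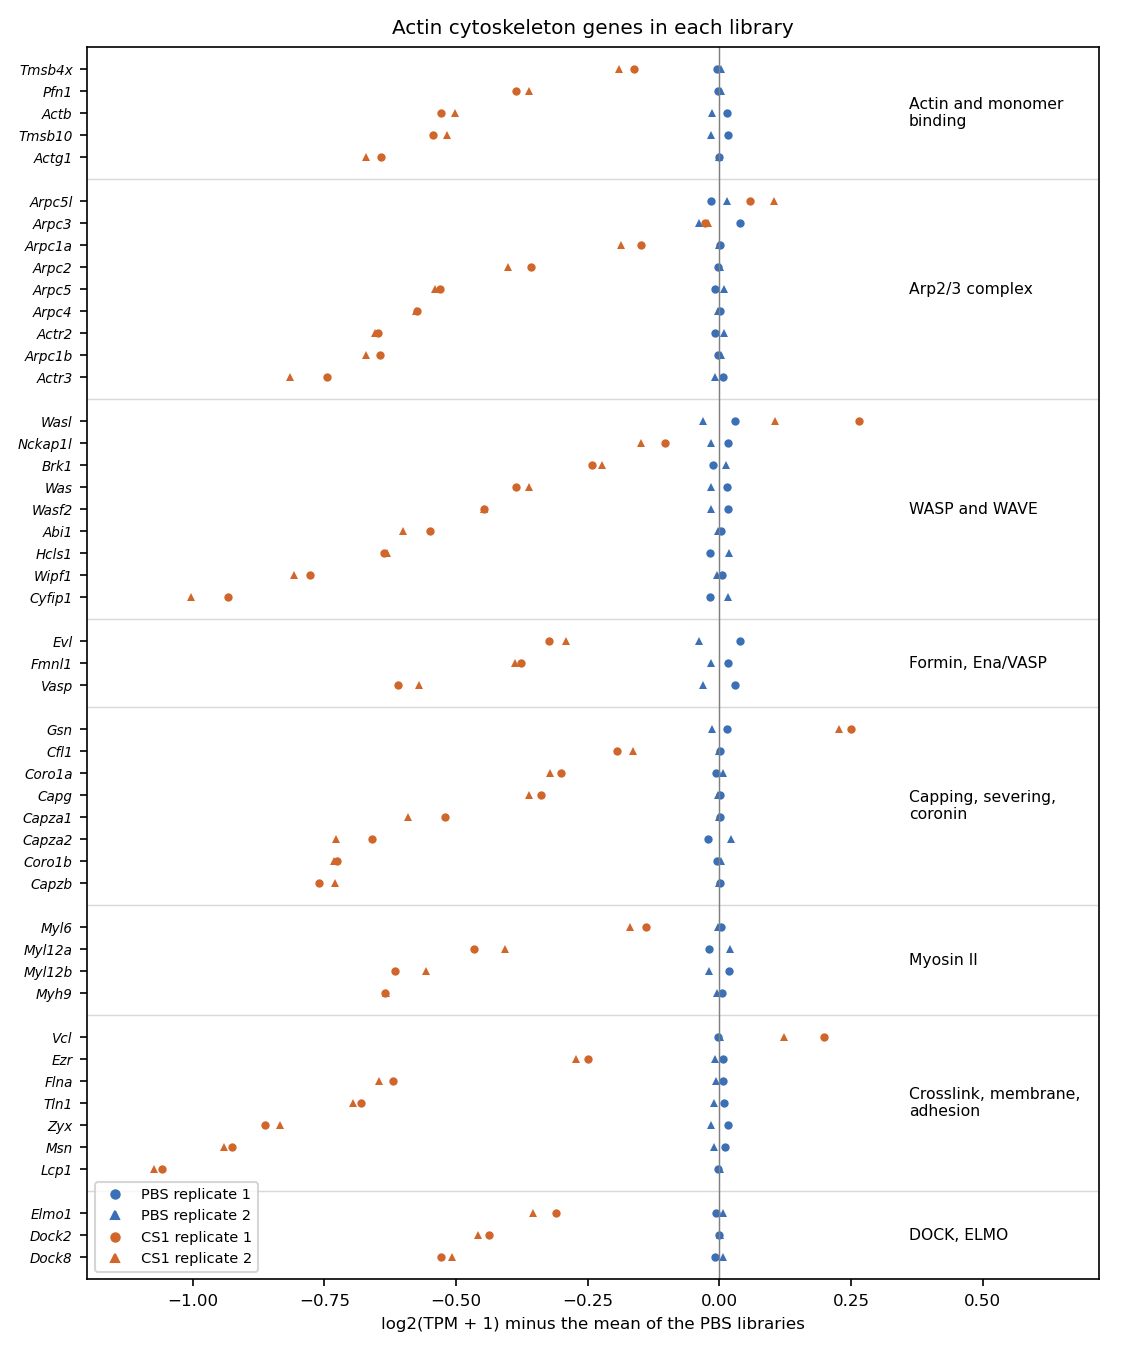
Level of each of the 48 members in each library, as log2(TPM + 1) minus the mean of the 2 PBS libraries (x axis), with genes grouped by role (y axis); blue stands for PBS, orange for CS1, circles for replicate 1 and triangles for replicate 2. CS1 points lie left of the PBS points for 43 members, right of them for Gsn, Vcl, Wasl and Arpc5l, and among them for Arpc3.

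**Figure D2:**
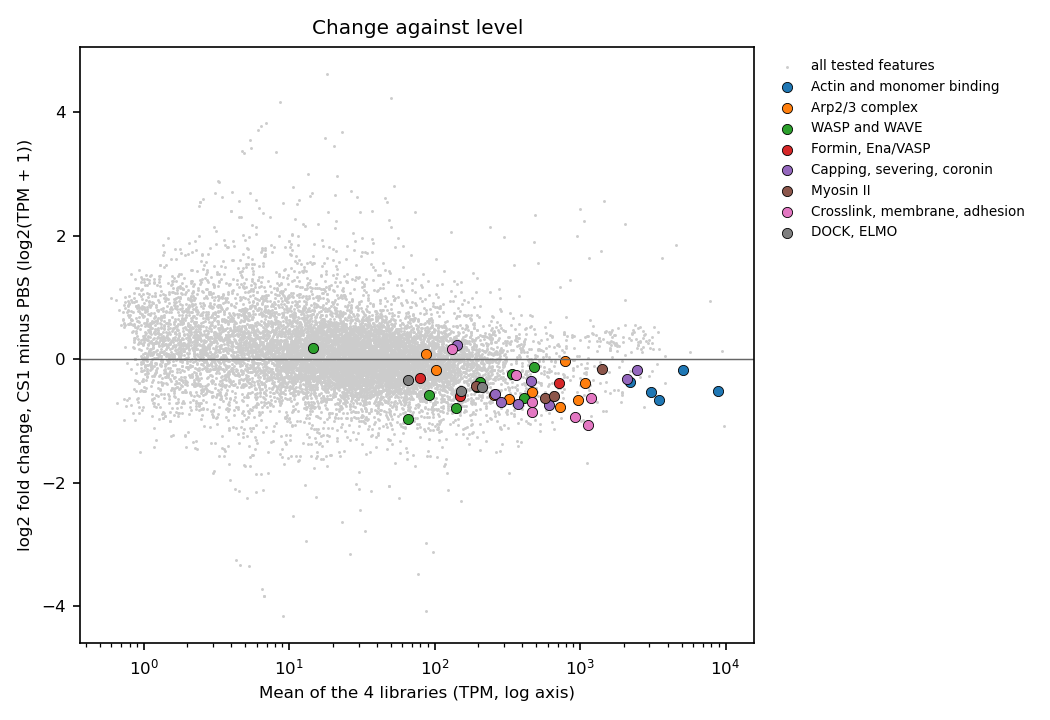
Log2 fold change of CS1 minus PBS on the log2(TPM + 1) scale (y axis) against the mean of the 4 libraries in TPM (x axis, logarithmic), with all 11866 tested features in grey and the members coloured by role. Most members lie below zero and above 100 TPM, with Actb the member farthest to the right and Wasl the one farthest to the left.

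The actins and the proteins that hold actin monomers were the most abundant group, and each of its 5 genes fell. Actb, cytoplasmic beta-actin, was the second feature of the whole table by its PBS level, at 10514 and 10310 TPM in PBS and 7220 and 7352 TPM in CS1. Its fall of 0.52 ± 0.02 on the log2 scale (SE, adjusted p = 1.42e-05) leaves no overlap between the groups. Actg1, cytoplasmic gamma-actin, stood at 4262 and 4261 TPM in PBS against 2728 and 2677 TPM in CS1 (log2 fold change -0.66 ± 0.02, adjusted p = 5.48e-06). The thymosins, small peptides that sequester actin monomers, differed from each other: Tmsb10 went from 3665 and 3585 TPM to 2485 and 2534 TPM. Tmsb4x was measured at 5422 and 5452 TPM in PBS and at 4856 and 4763 TPM in CS1, the smallest fall of the group, with a log2 fold change of -0.18. Profilin, which feeds monomers to growing ends, is encoded by Pfn1, whose values were 2479 and 2491 TPM in PBS and 1903 and 1935 TPM in CS1. After quantile normalization the fall of Actb was 0.33 and that of Tmsb4x 0.37 on the log2 scale, so the order of these 2 genes depended on the scaling. Actg1 shares 56.7% and Actb 14.2% of the 50-base stretches of its longest transcript with other annotated genes, and Tmsb10 shares 43.5%, so values of these genes are uncertain where reads were split among copies.

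Several actin genes are known targets of serum response factor, which binds the CArG box. The upstream stretches below show where a CArG box lies in a member that fell and has it close to its start (Actg1), in one of the 2 members that rose (Vcl), and in a subunit of the Arp2/3 complex that fell (Arpc4). Of the 49 members listed, 43 were in the RefSeq promoter table (GRCm38.p6); Actb, Arpc5l, Nckap1l, Cyfip1, Coro1b and Diap1 were not. In windows from 250 bases before to 50 bases after each start, searched on both strands, a CArG box was present for 4 of the 43 genes (Actg1, Arpc4, Myl6 and Vcl), in 7.27% of the members' 55 promoters and in 1.63% of all 32851 promoters. The 7.27% rests on 4 promoters. Promoters of tested features had a box in 1.28%, and those of the further list of actin pathway genes described below in 2.3%. Each stretch is given 5′ to 3′ on the strand of its gene over the 250 bases before the start, with the CArG box in capitals. The Actg1 stretch is chr11:120348496-120348745 (minus strand) and its box begins 90 bases before the start. The Arpc4 stretch is chr6:113377863-113378112 (plus strand), with the box at its far end, 250 bases before the start. The Vcl stretch is chr14:20929148-20929397 (plus strand), with the box beginning 227 bases before the start. The box of Myl6, which is not shown, begins 50 bases before the start and is the closest of the 4.
Actg1: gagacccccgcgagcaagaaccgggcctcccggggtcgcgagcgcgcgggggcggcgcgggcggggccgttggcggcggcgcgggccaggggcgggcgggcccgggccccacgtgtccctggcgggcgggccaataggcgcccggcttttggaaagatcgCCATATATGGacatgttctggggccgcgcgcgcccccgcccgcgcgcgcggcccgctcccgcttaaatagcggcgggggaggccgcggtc
Arpc4: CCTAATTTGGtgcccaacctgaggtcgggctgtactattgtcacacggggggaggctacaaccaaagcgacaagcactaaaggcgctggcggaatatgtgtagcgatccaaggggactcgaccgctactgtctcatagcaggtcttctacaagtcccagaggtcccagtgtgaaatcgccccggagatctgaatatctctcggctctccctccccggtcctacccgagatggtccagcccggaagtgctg
Vcl: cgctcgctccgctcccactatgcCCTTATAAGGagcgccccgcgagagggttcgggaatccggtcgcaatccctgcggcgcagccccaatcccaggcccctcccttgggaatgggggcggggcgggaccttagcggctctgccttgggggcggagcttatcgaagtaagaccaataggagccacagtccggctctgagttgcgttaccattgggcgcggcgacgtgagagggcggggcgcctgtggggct
The 4 genes with a box did not move alike: the log2 fold changes were -0.66 for Actg1, -0.58 for Arpc4, -0.15 for Myl6 and 0.16 for Vcl. A match of letters is a description of the window, and binding was not measured.

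Within the Arp2/3 complex, 7 of the 9 genes fell and 2 did not pass the test, with a median log2 fold change of -0.53. The 2 actin-related subunits, which form the first subunits of the new branch, fell together. Actr3 (Arp3) had the largest change of the complex, from 931 and 921 TPM in PBS to 552 and 526 TPM in CS1 (log2 fold change -0.78 ± 0.03, adjusted p = 8.94e-06), although 49.8% of its 50-base stretches also occur in other genes. Actr2 (Arp2) went from 398 and 402 TPM to 255 and 254 TPM. Among the supporting subunits, Arpc2 had the highest level in PBS, at 1217 and 1220 TPM, and was measured at 951 and 922 TPM in CS1 (log2 fold change -0.38). Arpc4, which pairs with Arpc2 at the core of the complex, was at 308 and 307 TPM in PBS and at 206 and 206 TPM in CS1. Arpc3 is the exception among the subunits without a paralogue: it read 813 and 770 TPM in PBS and 776 and 779 TPM in CS1, the only member whose groups overlapped (log2 fold change -0.02 ± 0.03, adjusted p = 0.490). The sign of that value turned to 0.07 after quantile normalization and to 0.01 without PBS replicate 1.

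The list holds alternative versions of 2 subunits of the complex. In each the version abundant in these cells fell, while the other fell less (Arpc1a) or was not called (Arpc5l). Arpc1b, the version typical of blood cells, was at 1173 and 1178 TPM in PBS and at 752 and 739 TPM in CS1. Arpc1a, the broadly used version, read 109 and 109 TPM in PBS and 98.2 and 95.5 TPM in CS1, with a log2 fold change of -0.17 against -0.66 for Arpc1b. Likewise Arpc5 went from 549 and 556 TPM to 382 and 380 TPM. Its relative Arpc5l was at 83.5 and 85.3 TPM in PBS and at 87.8 and 90.7 TPM in CS1, with both CS1 libraries above PBS but no call (log2 fold change 0.08 ± 0.03, adjusted p = 0.0677). After quantile normalization Arpc5l passed (log2 fold change 0.16, adjusted p = 0.00984). The exons of Arpc1b overlap those of Pdap1 over 931 bases, and Pdap1 was higher in CS1 (log2 fold change 0.25).

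Activators of the Arp2/3 complex fell in 8 of 9 cases (median log2 fold change -0.45). Cyfip1, the WAVE subunit that binds active Rac, had the largest change of the group and went from 86.4 and 88.5 TPM to 45.3 and 43.2 TPM (log2 fold change -0.97 ± 0.04, adjusted p = 1.32e-05); its exons overlap those of Nipa2, which was lower too (-0.57). Wipf1, which encodes the WASP-stabilising partner WIP, went from 178 and 177 TPM to 103 and 101 TPM (log2 fold change -0.79 ± 0.03). The remaining parts of the WAVE complex moved by unequal amounts. Abi1, an adaptor of the complex, was at 110 and 110 TPM in PBS and at 74.9 and 72.2 TPM in CS1 (log2 fold change -0.57). Wasf2 (WAVE2), which carries the Arp2/3-activating end, was at 230 and 225 TPM in PBS and at 167 and 167 TPM in CS1 (-0.45). Brk1, the smallest subunit, changed by -0.23, and Nckap1l (HEM1), the version of the scaffold found in blood cells, by -0.13. Nckap1l had the highest mean level of the group, at 511 and 499 TPM in PBS and at 470 and 455 TPM in CS1. It was not called with the variance trend off (adjusted p = 0.0588) and turned to 0.02 after quantile normalization, where Brk1 was at -0.06 (adjusted p = 0.0507).

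The WASP gene fell, and the gene of its relative was not called. Was, the WASP gene of blood cells, was measured at 233 and 228 TPM in PBS and at 176 and 179 TPM in CS1, a fall of 0.37 on the log2 scale. Wasl, which encodes the broadly used N-WASP, was the least abundant member, at 13.9 and 13.3 TPM in PBS and 16.5 and 14.7 TPM in CS1. Those CS1 values lie above PBS without a call (log2 fold change 0.19 ± 0.08, adjusted p = 0.0817), and there was one without CS1 replicate 2 (0.26, adjusted p = 0.0459). Hcls1, the blood-cell relative of cortactin that steadies branches, fell from 497 and 509 TPM to 323 and 324 TPM. Cortactin itself (Cttn) reached at most 0.13 TPM in any library.

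All 3 members for filament lengthening that were in the table fell. Formins of the further list described below went both ways, with Diaph1 at -0.76 and Fmnl3 at 0.78 on the log2 scale. Vasp, a founding member of the Ena/VASP family, went from 184 and 177 TPM to 118 and 121 TPM (log2 fold change -0.59 ± 0.03, adjusted p = 3.65e-05). Evl, another member of that family, was at 90.2 and 85.3 TPM in PBS and at 69.9 and 71.5 TPM in CS1. Fmnl1, a formin of blood cells and the most abundant of the 3, read 823 and 804 TPM in PBS and 626 and 621 TPM in CS1. For these 3 members both CS1 libraries lay below both PBS libraries, as they did for 39.3% of tested features.

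Capping, severing and coronin genes fell in 7 of 8 cases, and Gsn rose. Capping protein works as a pair of an alpha and a beta chain, and the genes for both kinds of chain fell. Capzb, the beta chain, went from 766 and 766 TPM to 452 and 462 TPM (log2 fold change -0.74 ± 0.02, adjusted p = 4.70e-06). Capza2 was at 348 and 358 TPM in PBS and 223 and 213 TPM in CS1. The other alpha chain, Capza1, was at 311 and 311 TPM in PBS and 216 and 206 TPM in CS1, with 73.8% of its 50-base stretches also present in other genes, so that its value is uncertain. Of the gelsolin family, Capg, which caps without severing, fell from 514 and 513 TPM to 405 and 399 TPM. Gelsolin itself (Gsn), which severs and then caps, was at 133 and 130 TPM in PBS and at 156 and 154 TPM in CS1, a rise of 0.24 ± 0.03 on the log2 scale (adjusted p = 0.000520). Its groups did not overlap.

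Cofilin, which disassembles old filaments, had one of the smaller falls of the set. Cfl1 was the most abundant gene of this group, with 2635 and 2633 TPM in PBS and 2301 and 2352 TPM in CS1 (log2 fold change -0.18 ± 0.02, adjusted p = 0.000522). Quantile normalization gave a larger fall of 0.41. Coronins work with cofilin and the Arp2/3 complex at filament ends, and the 2 members differed in size of change. Coro1b went from 467 and 470 TPM to 283 and 282 TPM (log2 fold change -0.73), and its exons overlap those of Ptprcap and Rps6kb2, both of which were higher in CS1 (0.85 and 0.59). Coro1a, the version of blood cells, was at 2325 and 2347 TPM in PBS and at 1895 and 1869 TPM in CS1, a fall of 0.31, which became 0.50 after quantile normalization.

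Non-muscle myosin II is built from a heavy chain and light chains of a regulatory and an essential kind, and all 4 of its genes on the list fell. Myh9, the heavy chain, went from 703 and 698 TPM to 451 and 451 TPM (log2 fold change -0.63 ± 0.02, adjusted p = 5.64e-06). The regulatory light chain Myl12b was at 805 and 784 TPM in PBS and at 518 and 539 TPM in CS1. Its neighbour Myl12a, whose exons overlap those of Myl12b over 462 bases and which shares 29.6% of its 50-base stretches with other genes, was at 217 and 224 TPM in PBS and at 159 and 166 TPM in CS1. The essential light chain Myl6 was the most abundant and the least changed, with 1501 and 1494 TPM in PBS and 1359 and 1332 TPM in CS1 (log2 fold change -0.15 in the deposited scaling and -0.26 after quantile normalization). Other heavy chains of this class were scarce, with Myh10 at no more than 0.84 TPM and Myh14 at no more than 0.05 TPM in any library.

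Of the crosslinkers and the links to membrane and adhesions, 6 of 7 genes were lower and 1 was higher, with a median log2 fold change of -0.69. Lcp1, which encodes L-plastin, the filament bundler of leucocytes, was at 1527 and 1531 TPM in PBS and at 734 and 726 TPM in CS1. Its ratio of 0.477 is the lowest of the 48 (log2 fold change -1.07 ± 0.02, adjusted p = 1.97e-06). Lcp1 lies at chr14:75131101-75230842 (plus strand, mm10). Flna, filamin A, which crosslinks filaments into a gel, went from 1454 and 1441 TPM to 941 and 925 TPM.

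Moesin and ezrin fasten filaments to the cell membrane. Msn, the moesin gene (chrX:96096042-96168552, plus strand), fell from 1217 and 1200 TPM to 636 and 629 TPM (log2 fold change -0.93 ± 0.02, adjusted p = 2.76e-06). Ezr was lower by less, at 400 and 396 TPM in PBS and at 334 and 329 TPM in CS1 (-0.26, and -0.11 after quantile normalization). Of the integrin-linked genes, Zyx, a zyxin that recruits Ena/VASP proteins to strained filaments, was at 604 and 591 TPM in PBS and 328 and 335 TPM in CS1 (log2 fold change -0.85). Tln1, the talin that switches integrins on, went from 583 and 575 TPM to 361 and 357 TPM (log2 fold change -0.69).

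Vinculin, which binds talin and actin under tension, moved the other way. Vcl was at 125 and 125 TPM in PBS and at 143 and 136 TPM in CS1, a rise of 0.16 ± 0.03 on the log2 scale (adjusted p = 0.00685). The rise was 0.10 under trimmed-mean rescaling (adjusted p = 0.0319) and 0.27 after quantile normalization. Its exons overlap those of Ap3m1 over 2090 bases, so its value is uncertain where reads were counted without strand; Ap3m1 was lower in CS1 (-0.38).

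The 3 DOCK and ELMO genes, all of them lower in CS1, take the signal from chemokine receptors to actin. Dock8, an activator of Cdc42 needed for migration through tissue, was at 178 and 180 TPM in PBS and 124 and 126 TPM in CS1 (log2 fold change -0.52 ± 0.02, adjusted p = 2.37e-05). Dock2, the main Rac activator of leucocytes, read 245 and 245 TPM in PBS and 181 and 178 TPM in CS1. Elmo1, the partner of DOCK proteins, went from 73.1 and 73.8 TPM to 59.1 and 57.3 TPM. Both CS1 libraries lay below both PBS libraries for all 3, as they did for 39.3% of tested features.

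Shares within pairs of related genes do not depend on a common scaling factor, and they show how unequally the members fell. The share of Msn in the summed TPM of Msn and Ezr was 75.3% and 75.2% in PBS and 65.6% and 65.7% in CS1, a difference of -9.63 percentage points and the largest of the 10 pairs examined. Arpc5 made up 86.8% and 86.7% of Arpc5 and Arpc5l in PBS and 81.3% and 80.7% in CS1. In the thymosin pair, Tmsb4x rose from 59.7% and 60.3% to 66.2% and 65.3% of the sum as Tmsb10 fell further. The actin pair moved little: Actb was 71.2% and 70.8% of Actb and Actg1 in PBS and 72.6% and 73.3% in CS1, a gain of 1.99 points that became 8.03 points after quantile normalization.

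In the coronin pair the share of Coro1a was 83.3% and 83.3% in PBS and 87.0% and 86.9% in CS1, a gain of 3.66 points (0.72 after quantile normalization). For the other pairs the difference, CS1 minus PBS, was -4.45 points for Vasp against Evl, -3.03 for Arpc1b against Arpc1a and -2.51 for Was against Wasl (-1.55 after quantile normalization). It was 2.38 points for Capza1 against Capza2 and 1.81 for Myl12a against Myl12b. CS1 and PBS shares did not overlap in any pair. With 2 libraries a group, the exact two-sided permutation test gave p = 0.333 for each pair, the smallest it can give.

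**Figure D3:**
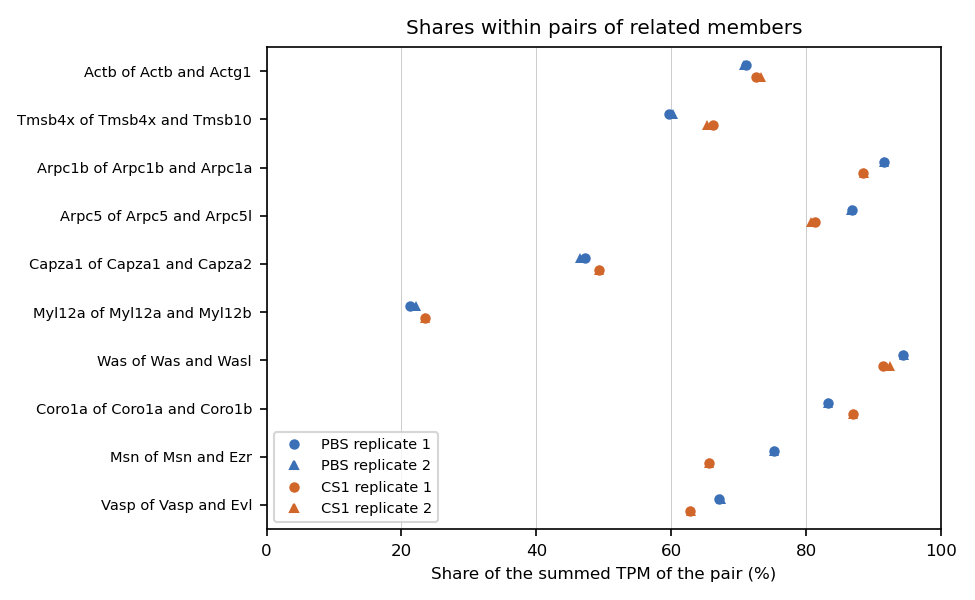
Share of the first-named gene in the summed TPM of each of 10 pairs (x axis, percent), with PBS libraries in blue and CS1 libraries in orange, circles for replicate 1 and triangles for replicate 2. Msn of Msn and Ezr shows the widest gap, from about 75.2% in PBS to 65.6% in CS1, and Myl12a of Myl12a and Myl12b the narrowest, from 21.7% to 23.5%.

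A further list of 143 genes of the actin pathway, of which 139 were in the table and 117 passed the filter on low values, was more divided than the members. Of the 117, 72 were lower, 24 higher and 21 not called, and the median log2 fold change was -0.20. Over all tested features 31.6% were called lower and 35.3% higher, with a median of 0.04. Regulators of the small GTPases upstream of actin were lower in 17 of 25 cases and higher in 4, and genes of filament turnover in 13 and 5 of 18. Other nucleators were split, with 7 lower and 5 higher of 15 and a median log2 fold change of 0.03. Of 12 kinases and phosphatases, 5 were lower and 7 were not called (median -0.06). Diaph1, the formin for which Diap1 is an older name, was at 287 and 280 TPM in PBS and at 169 and 165 TPM in CS1 (log2 fold change -0.76).

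Among genes of this further list that reached a mean of 5 TPM in a group, large falls were those of Marcks, which links actin to membrane lipids, Eps8, which caps and bundles filaments, Abi3, Svil (supervillin) and Cap1, which recycles cofilin-bound monomers. Marcks went from 11.7 and 11.9 TPM to 2.67 and 2.50 TPM (log2 fold change -1.84), and Eps8 changed by -1.69. Abi3, an adaptor of the WAVE complex, was at 46.6 and 45.3 TPM in PBS and 17.1 and 17.1 TPM in CS1 (-1.37). Cap1, the most abundant of these, went from 864 and 868 TPM to 424 and 428 TPM (-1.02). Svil changed by -1.30.

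The largest rises by the same rule were in genes of at most 54.9 TPM. Fhdc1, a formin that also binds microtubules, was at 0.58 and 0.86 TPM in PBS and at 10.3 and 9.74 TPM in CS1 (log2 fold change 2.69 ± 0.13, adjusted p = 2.37e-05). Spire1, a nucleator that works with formins, went from 1.57 and 1.51 TPM to 9.20 and 8.77 TPM, and Carmil2, a regulator of capping protein, from 3.47 and 4.40 TPM to 16.7 and 16.9 TPM. Actn1, a crosslinker of the alpha-actinin family, rose from 5.33 and 4.63 TPM to 17.6 and 16.3 TPM. The MARCKS relative Marcksl1 was at 17.7 and 18.5 TPM in PBS and at 54.1 and 54.9 TPM in CS1, opposite in direction to Marcks. The formin gene Fmnl3 had a log2 fold change of 0.78. PBS and CS1 libraries did not overlap for Fhdc1, Spire1, Carmil2, Actn1, Marcksl1 or Fmnl3, nor for the falling genes Marcks, Eps8, Abi3, Svil and Cap1. All were picked for the largest called changes, so the lack of overlap was nearly settled by that choice.

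**Figure D4:**
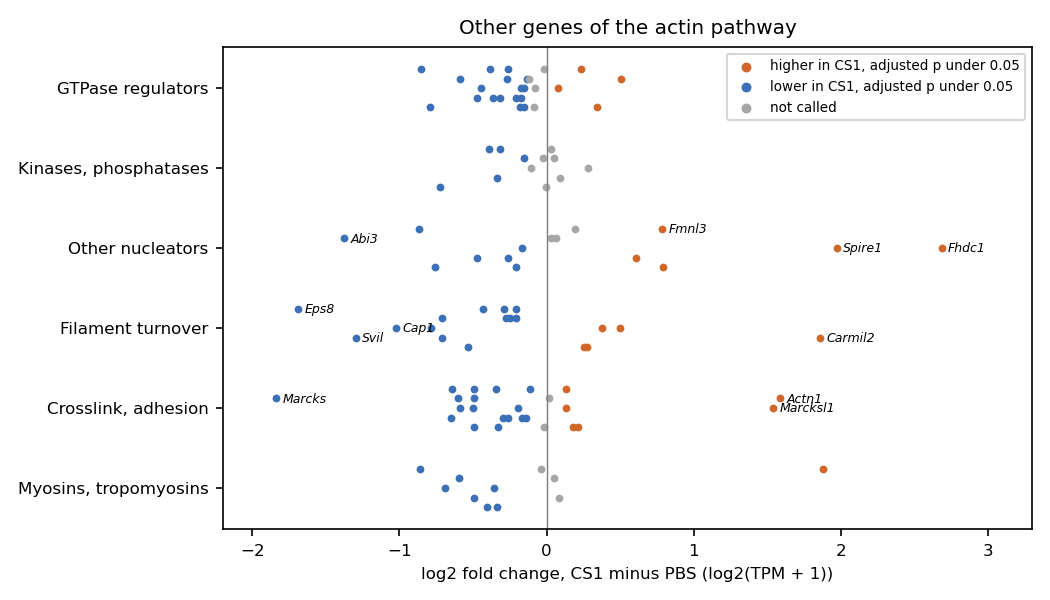
Log2 fold change of CS1 minus PBS on the log2(TPM + 1) scale (x axis) for 106 of the 117 tested genes of the further list, by role (y axis), the remaining ones not being shown here; orange marks genes called higher, blue genes called lower and grey genes not called, and dots are spread vertically only for legibility. The named genes, each reaching a mean of 5 TPM in a group, run from -1.84 for Marcks to 2.69 for Fhdc1; the unnamed orange dot among the myosins is Myl10, which stays under that level.

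Column sums of the 4 libraries lay between 977973 and 986345 TPM. Ptprc, the gene of the CD45 antigen used for the enrichment, was at 583 and 597 TPM in PBS and at 323 and 315 TPM in CS1. The lowest value of the myeloid genes Itgam, Cd33 and Spi1 in any library was 374 TPM (Cd33). The other myeloid markers spanned a wide range in PBS. They ran from Meis1 at 25.2 and 26.6 TPM to Ly6c2 at 1950 and 1943 TPM. Myeloid markers moved with the groups. Of 12 myeloid markers 5 were higher and 6 lower in CS1, with a summed level of 6994 to 7004 TPM in PBS and 8353 to 8423 TPM in CS1. Of 8 neutrophil markers 4 were higher and 3 lower. Their sum was 1754 to 1787 TPM in PBS and 5438 to 5461 TPM in CS1, mostly Camp and Ngp. On the same list Cxcr2 was lower (log2 fold change -0.43), Retnlg was higher (1.64) and Ly6g was not called (-0.04). The sum is therefore not a measure of mature neutrophils. Among the 12 myeloid markers, Itgam and Csf1r were lower, with log2 fold changes of -0.95 and -0.74. Neutrophil granule genes were divided: Camp, Ngp, Mpo, Elane and Mmp9 were higher (2.43, 2.18, 2.33, 2.56 and 0.70), and Mmp8 and Ltf were lower (-1.05 and -0.65). The part of these markers in the fall of the actin genes was not tested.

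Lists of markers of other cells had lower summed levels than the 12 myeloid markers in both groups, though single genes such as Adgre1 exceeded single myeloid markers. Among the 8 markers of platelets, cells rich in actin and thymosin, 3 reached 1 TPM and the sum was 1.53 to 2.26 TPM in PBS and 4.21 to 6.70 TPM in CS1, with Pf4, Ppbp and Gp6 listed at the lowest value in every library. Summed T cell markers (6 of 8 in the table) were 32.0 to 35.2 TPM in PBS and 27.1 to 27.3 TPM in CS1. The 7 B cell markers summed to 68.6 to 70.9 TPM and 44.2 to 45.9 TPM. The 6 NK cell markers, of which Nkg7 made up most, summed to 12.7 to 14.9 TPM in PBS and 37.6 to 44.0 TPM in CS1. For the 8 erythroid markers the sums were 19.1 to 19.6 TPM and 36.4 to 42.7 TPM. Single haemoglobin genes among them jumped from or to the lowest value. Hbb-bs was at 0.01 TPM in both PBS libraries and at 13.5 and 12.2 TPM in CS1. In CS1 Hba-a1 was at 26.1 and 0.01 TPM and Hba-a2 at 0.01 and 19.3 TPM. How reads were assigned among these genes was not tested. The 9 genes for stroma and endothelium, mostly Pecam1, summed to 47.1 to 48.5 TPM in PBS and 38.0 to 40.0 TPM in CS1, with Dcn and Pdgfra at the lowest value. The list for spleen macrophages (8 genes, mostly Adgre1) summed to 177 to 178 TPM in PBS and 122 to 125 TPM in CS1. Of these genes 1 was called lower, Adgre1 (-0.75), and 2 were called higher, Cd163 (0.99) and Vcam1 (0.56).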

How the data were processed

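Poly(A) RNA of 4 libraries was analysed, 2 from PBS and 2 from CS1, grouped by their titles. STAR, RSEM and mm10 are named in the submitters' processing notes, without versions; annotation and strand setting were not given in the sources. The deposited values were taken as TPM made by the authors, since the columns sum to nearly the same total (977973 to 986345) and RSEM writes TPM; neither header nor labels state the unit. The lowest listed value is 0.01, where a 0 would be expected. TPM keeps no read depth, so no counting interval is given.

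From these, log2(TPM + 1) of CS1 was compared with PBS by limma (version 3.58.1, run in R 4.3.3; variance trend on), over the features that reached 1 TPM in 2 or more libraries, two-sided, with Benjamini-Hochberg adjustment over all of them; every adjusted p-value is from this test or its alternatives. The 48 members in the table passed the filter; their lowest value in any library was 13.3 TPM (Wasl). The fit was tested on simulated data. Members, gene lists and tests were chosen with earlier results of these data known, so no list was tested as a set. Values per library are given for members called with a change of at least 0.5, for the 2 largest changes and the highest level of each role, and for the pairs; of the further list, the 6 highest and 6 lowest called log2 fold changes with a group mean of at least 5 TPM are named, apart from items not reported here. Any other gene given with values was chosen after its values were seen. Of the 48 members, 17 share exon bases with another tested feature in GENCODE M21 (GRCm38), and 10 share at least 10% of the 50-base stretches of their longest transcript with other genes. Alternatives were another scaling, pseudocount or filter, no variance trend, a replicate block, and leaving out each library.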

Additional observations from a re-analysis of the deposited data

How the results depend on the processing

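The count of 43 lower members ranged from 41 to 43 and that of 2 higher members from 2 to 3 over the 12 alternatives; with the replicate block they were 43 and 2, and the block changed the call of no member. Replicate numbers were not shown to pair the libraries (r = 0.02 between the deviations of same-numbered libraries over 11866 features). The other pathway genes called lower ranged from 65 to 79 and those called higher from 17 to 25. The members' median log2 fold change of -0.52 became -0.58 after rescaling by a trimmed mean of M values and -0.43 after quantile normalization, and lay between -0.52 and -0.51 when each library was left out. By role, the median after trimmed-mean rescaling was -0.58 for actin and monomer binding, -0.60 for Arp2/3, -0.51 for its activators, -0.45 for formin and Ena/VASP, -0.52 for capping, -0.58 for myosin II, -0.75 for crosslinkers and links, and -0.51 for DOCK and ELMO. After quantile normalization it was -0.41 for Arp2/3, -0.34 for its activators, -0.29 for formin and Ena/VASP, -0.41 for myosin II, -0.67 for crosslinkers and links, and -0.33 for DOCK and ELMO. Quantile normalization also gave 8.03 points for Actb in its pair, -5.26 for Arpc5, 1.66 for Capza1, -1.55 for Was, 0.72 for Coro1a, -10.6 for Msn and -3.77 for Vasp. It turned Arpc3 to 0.0693 and Nckap1l to 0.0183, and Arpc3 lay between -0.0631 and 0.0145 when each library was left out, above zero without PBS replicate 1. The cause of these shifts was not tested. Trimmed-mean rescaling moved the median of all tested features from 0.04 to -0.02. The read depth behind the values is unknown.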
